A study of Rattus norvegicus with 8 samples.

Results

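Hippocampal RNA of Q808-treated kindled rats (the Q808 group, 2 libraries) was compared with that of kindled rats given vehicle (the PTZ group, 3 libraries), 5 of the 8 libraries of the series. The comparison took in every gene with a mean of at least 0.1 FPKM (fragments counted per gene, divided by transcript length and library size) over the 8 libraries, which left 15593 of 22601 genes. All rats were wild-type Wistar rats of 180 to 220 g, and no age was given. The PTZ and Q808 rats both carried the same kindling treatment, 35 mg/kg pentylenetetrazol (PTZ) every 48 h for 28 days, 14 injections, with 60 mg/kg on the last day. The Q808 rats then received 30 mg/kg Q808 a day by gavage for 28 days, and the PTZ rats its solvent. Both groups were given PTZ again the day after the last gavage and scored for seizures before the tissue was taken. The 3 control rats (Con.) had saline and solvent, and their levels are given as a background. Each library came from 1 rat, with the hippocampi of both sides dissected and the meninges taken off. The question put to this comparison was which genes differ after Q808 among animals that had all been kindled.

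PTZ is a convulsant that blocks the chloride channel of GABA-A receptors, the main inhibitory receptors of the forebrain, and repeated doses lower the seizure threshold, a process called kindling. A seizure switches on immediate early genes such as *Fos* and *Arc* within minutes in hippocampal neurons, followed by slower genes that encode secreted peptides, growth factors and synaptic proteins. Q808 is a code-named anticonvulsant candidate. The hippocampus borders the choroid plexus, a secretory epithelium that makes cerebrospinal fluid, and its dissection can also bring along meninges, vessels and neighbouring striatum or thalamus.

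The 5 libraries did not have the same tissue content, and each result was therefore also read within sets of like libraries. Genes of striatal projection neurons were high in PTZ-3 and Q808-1, with a mean log2(FPKM + 0.1) over 14 genes of 5.38 and 5.52, and low in PTZ-1, PTZ-2 and Q808-2, at 1.80, 1.84 and 1.69. *Ppp1r1b*, a phosphatase inhibitor of striatal neurons, stood at 405 and 386 FPKM in the first pair and at 40.0, 37.4 and 40.1 FPKM in the other 3. Markers of the hippocampus itself were lower in the same pair. *C1ql2*, a synaptic organiser of dentate granule cells, stood at 5.09 and 3.23 FPKM in PTZ-3 and Q808-1 against 82.5, 96.7 and 50.6 FPKM in PTZ-1, PTZ-2 and Q808-2. Con.-3, at 755 FPKM of *Ppp1r1b* and 4.46 FPKM of *C1ql2*, was like the pair, so that the dentate marker of the labelled tissue was low in 3 of the 8 libraries. Each gene was checked within these 2 sets by 3 differences, Q808-2 minus PTZ-1, Q808-2 minus PTZ-2 and Q808-1 minus PTZ-3. The set of PTZ-3 and Q808-1 has 1 library a group and so no error of its own. The relative depth, read from the steps of 1 fragment in low FPKM values, was 0.790 and 0.801 in PTZ-3 and Q808-1 and 0.959 to 1.03 in the other 3, with PTZ-1 set to 1. The number of reads is not given by the files, so that no counting error could be computed. In bulk tissue, fewer cells of a type and less RNA per cell cannot be told apart.

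Of the 15593 genes, 308 (1.98%) were called, at an unadjusted p under 0.05 in limma and more than a 1.5-fold difference, 213 of them higher in Q808 (1.37%) and 95 lower (0.609%). No gene had an adjusted p under 0.05 in limma, where the smallest was 0.291 and 395 genes had an unadjusted p under 0.05, and every gene named as called had an adjusted p = 0.924 in limma except *Ppial4d*, at 0.291. An exact permutation of 3 against 2 libraries cannot give a p below 0.1. Of the called genes, 307 had the same sign in all 3 differences within the sets, against 39.8% of all genes. The size held less often, since 163 of the called genes were beyond 1.5-fold in all 3 differences, against 1.86% of all genes. The groups of 306 called genes did not overlap, against 17.5% of all genes (10.1% higher and 7.38% lower). These are the libraries of the test itself, so that these shares are not independent of the calls. With the 2 sets as a block 573 genes were called (3.67%), 276 of them among the 308 and with the same direction. Of the called genes named below, *Slc6a12*, *Ldb2* and *Ndufa10l1* lost their call with this block (limma unadjusted p = 0.0532, 0.0585 and 0.0575), and *Col5a2*, *Psmd5*, *Insr* and *Idi1* came under 1.5-fold (0.56, -0.55, 0.58 and -0.58 on the log2 scale). *Wfs1*, *Nrn1*, *C1ql2*, *Mas1*, *Sst*, *Penk*, *Hba-a1*, *Hbb-b1* and *Bdnf*, named below without a call, were called with it, at -1.37, -1.32, -0.79, -1.38, -0.61, -0.78, 0.76, 0.93 and -2.12. The excess of higher over lower calls depended on the scaling. After quantile normalization 274 genes were called, 132 higher and 142 lower, and 207 of them were among the 308. Named genes that lost their call with it were *Alas2*, *Ldb2*, *Cck*, *Insr*, *Col6a2*, *Slc6a12* and *Ldha* (limma unadjusted p = 0.0516 to 0.0750). *Insr*, *Col5a2* and *Idi1* came under 1.5-fold with it (0.50, 0.51 and -0.56 on the log2 scale). Leaving out a library moved the number of calls between 145 (without PTZ-1) and 1454 (without Q808-2), with 163 without PTZ-2 and 1236 without PTZ-3. In each of the 5 fits that left a library out, 45 of the 308 genes were called in the same direction, 27 higher and 18 lower.

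**Figure D1:**
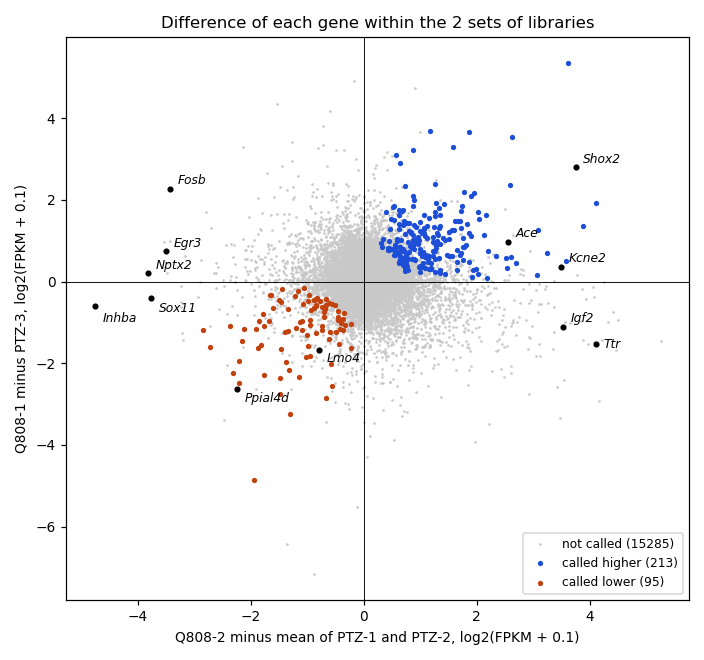
Difference of each gene between Q808 and PTZ in the set of PTZ-1, PTZ-2 and Q808-2 (x axis) against that in the set of PTZ-3 and Q808-1 (y axis), both as differences of log2(FPKM + 0.1) after scaling; each point is 1 gene. The 213 genes called higher (blue) lie in the upper right and the 95 called lower (orange) in the lower left, while Ttr and Igf2 at the right and Fosb and Egr3 at the left have opposite signs in the 2 sets and were not called.

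Among the genes that were higher with non-overlapping groups and beyond 1.5-fold in all 3 differences, the 12 with the smallest p were *Shox2*, *Hbb*, *Wfikkn2*, *Ace*, *Lgals5*, *Man2b2*, *Slc4a2*, *H2-Q7-ps1*, *Tmem144*, *Col9a3*, *Epha2* and *Serpinb1a*. *Shox2*, a homeobox transcription factor of thalamic neurons, was listed at 0 in PTZ-1 and in PTZ-2, reached 0.105 FPKM in PTZ-3 and stood at 1.29 FPKM in either Q808 library, with 0.226 to 0.627 FPKM in the Con. libraries. It was low everywhere, and the log2 difference of 3.44 (SE 0.48, limma unadjusted p = 0.000441) depends on the added 0.1. It was the 1 called gene among 9 tested genes of the thalamus and habenula list. *Wfikkn2*, a secreted inhibitor of growth differentiation factors, stood at 1.92, 1.14 and 1.57 FPKM in PTZ and 4.30 and 5.56 FPKM in Q808, a log2 difference of 1.57 (SE 0.30, limma unadjusted p = 0.00239). *Slc4a2*, an anion exchanger, stood at 5.61, 4.45 and 7.60 FPKM in PTZ and at 11.8 and 18.6 FPKM in Q808. *Man2b2*, a lysosomal mannosidase, was at 6.41, 5.93 and 7.96 FPKM in PTZ and 17.4 and 12.2 FPKM in Q808, and its Con. libraries, at 9.99 to 12.7 FPKM, reached the lower Q808 value. *Tmem144* was at 4.08, 4.29 and 6.39 FPKM in PTZ and 15.1 and 9.77 FPKM in Q808, with Con.-1 at 13.5 FPKM and the other Con. libraries at 3.85 and 3.02 FPKM. *Serpinb1a*, an inhibitor of neutrophil proteases, was at 1.79, 1.40 and 2.66 FPKM in PTZ and 4.29 and 8.45 FPKM in Q808. *Epha2*, an ephrin receptor, was at 0.565, 0.566 and 0.778 FPKM in PTZ and 1.74 and 1.71 FPKM in Q808, above the Con. libraries at 0.344 to 0.635 FPKM. *Lgals5*, a galectin, was at 0.299 to 0.654 FPKM in PTZ and at 2.42 and 1.95 FPKM in Q808. All 12 kept their call whichever library was left out. Of them, *Shox2*, *Lgals5*, *H2-Q7-ps1* and *Epha2* had a mean under 1 FPKM over the 8 libraries and passed the limit of 1 FPKM only through the Q808 group, where they were high.

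The 12 genes that were lower by the same rule were *Ppial4d*, *Glce*, *Kcnv1*, *Tmem97*, *Ier5l*, *Lmo4*, *Mex3a*, *Pdyn*, *Mogat1*, *Slc25a22*, *Hcrtr1* and *Metrnl*. *Glce*, an epimerase of heparan sulfate synthesis, stood at 17.3, 25.6 and 15.5 FPKM in PTZ and 6.82 and 6.73 FPKM in Q808, a log2 difference of -1.54 (SE 0.30, limma unadjusted p = 0.00240). Con.-1 and Con.-2 were at 6.65 and 7.07 FPKM, close to the Q808 libraries, and Con.-3 at 17.4 FPKM. *Tmem97*, an endoplasmic reticulum protein known as the sigma-2 receptor, had narrow groups, 17.7, 17.3 and 17.6 FPKM in PTZ against 10.7 and 11.5 FPKM in Q808 and 9.47 to 11.7 FPKM in Con. *Kcnv1*, a silent modifier subunit of potassium channels, was at 19.4, 20.5 and 24.2 FPKM in PTZ and at 13.7 and 13.5 FPKM in Q808. *Ier5l*, a relative of an immediate early gene, was at 9.63, 9.46 and 10.3 FPKM in PTZ and 6.36 and 5.79 FPKM in Q808. *Lmo4*, a LIM-domain cofactor of transcription, was at 115, 117 and 129 FPKM in PTZ and 38.3 and 74.2 FPKM in Q808, and without Q808-1 its log2 difference of -1.23 was -0.77. *Hcrtr1*, a receptor for the arousal peptide orexin, was at 1.54, 1.19 and 1.21 FPKM in PTZ and 0.397 and 0.691 FPKM in Q808, and passed the limit of 1 FPKM only through the PTZ group. *Metrnl*, a secreted protein of the meteorin family, was at 2.06, 2.14 and 2.30 FPKM in PTZ and 0.895 and 1.35 FPKM in Q808. *Mogat1*, an acyltransferase of triglyceride synthesis, was at 2.37, 2.20 and 2.08 FPKM in PTZ and 0.962 and 1.13 FPKM in Q808. Of the 12, 8 kept their call whichever library was left out. *Mogat1* lost it without PTZ-1 (log2 difference -1.02), *Slc25a22* without Q808-1 (-1.61), *Hcrtr1* without PTZ-1 (-1.09) or Q808-1 (-0.89), and *Metrnl* without PTZ-1 (-1.0), PTZ-2 (-0.94) or Q808-1 (-0.71).

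**Figure D2:**
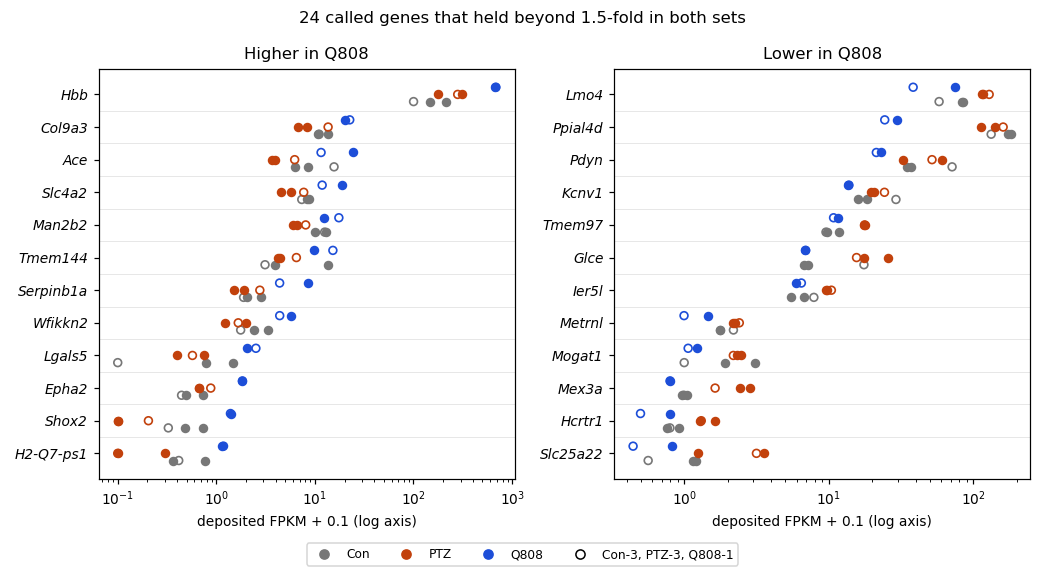
Deposited FPKM plus 0.1, on a log axis, of the 12 higher and 12 lower genes in each of the 8 libraries; each point is 1 library, grey for Con., orange for PTZ and blue for Q808, and open points mark Con.-3, PTZ-3 and Q808-1. In each of the 24 genes the 2 Q808 points lie beyond all 3 PTZ points.

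Genes were then grouped into 17 cell classes and 34 functions. The numbers of members called were read against 1.37% of all genes higher and 0.609% lower, and those with 1 sign in all 3 differences against 21.2% higher and 18.6% lower. Calls with the 2 sets as a block were read against 2.19% of all genes higher and 1.49% lower. The median log2 difference over all genes was 0.036, and with quantile normalization 0.011.

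**Figure D3:**
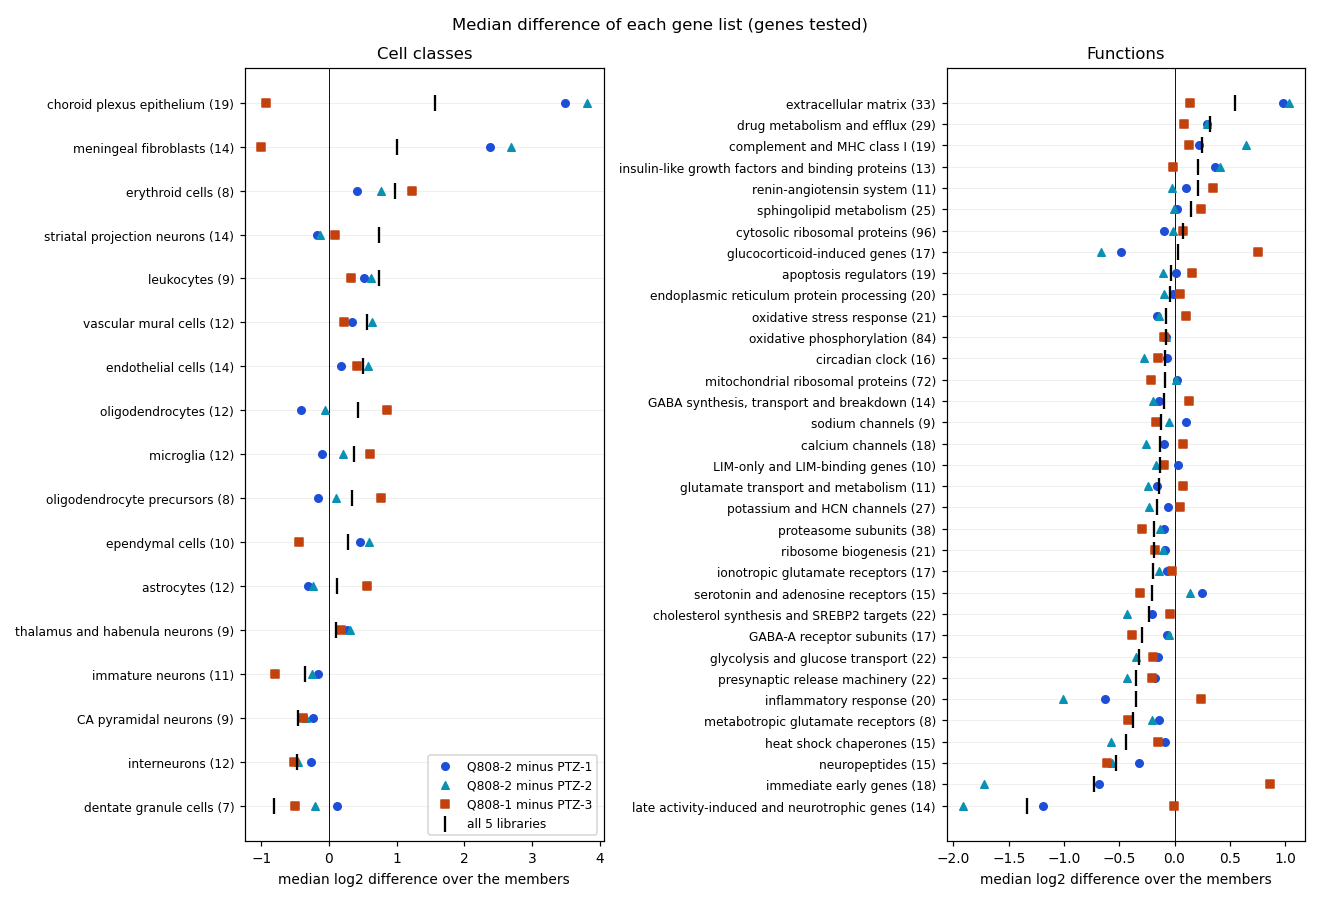
Median log2 difference over the tested members of each cell class (left) and function (right), with the number of tested genes in parentheses; circles and triangles are Q808-2 minus PTZ-1 and PTZ-2, squares Q808-1 minus PTZ-3, and black bars the fit over all 5 libraries. Choroid plexus genes reach 3.50 and 3.82 in one set and -0.93 in the other, while neuropeptides, interneuron genes and erythroid genes have medians of 1 sign in all 3 differences.

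Choroid plexus genes had the highest median of the 17 cell classes, 1.56 over 19 tested genes, and most of them came from Q808-2. *Ttr*, the transthyretin that carries thyroid hormone into cerebrospinal fluid, was at 6301 FPKM in Q808-2 but 156 FPKM in Q808-1, against 399, 271 and 475 FPKM in PTZ. All 19 genes were higher in Q808-2 than in PTZ-1 and PTZ-2, and 15 were lower in Q808-1 than in PTZ-3. Without Q808-2 the median of the list was -0.35. *Clic6*, a chloride channel of secretory epithelia, went the same way, at 43.8 FPKM in Q808-2 and 2.84 FPKM in Q808-1 against 3.50, 2.05 and 5.99 FPKM in PTZ. Of the 19 genes 4 were higher in all 3 differences, among them the 3 that were called, *Ace*, *Enpp2* and *Kcne2*. These 3 were also highest in Q808-2. Since 307 of the 308 called genes had 1 sign in all 3 differences, the sign does not set them apart.

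*Ace*, the angiotensin-converting enzyme of choroid plexus and endothelium, was at 3.81, 3.60 and 6.13 FPKM in PTZ and at 11.4 and 24.5 FPKM in Q808, with 6.24, 8.34 and 15.5 FPKM in Con. The groups did not overlap, and its log2 difference was 1.85 (SE 0.37, limma unadjusted p = 0.00269). Within the set of PTZ-3 and Q808-1, with 1 library a group, it was 0.97. In that set 4 of 19 tested choroid plexus genes were higher in Q808-1, *Ace* among them. *Enpp2*, the autotaxin that makes lysophosphatidic acid, also made by oligodendrocytes, was at 82.2, 60.3 and 113 FPKM in PTZ and 165 and 396 FPKM in Q808. Its log2 difference of 1.56 was 0.94 without Q808-2. *Kcne2*, a potassium channel subunit of the choroid plexus, was at 0.701, 1.17 and 1.77 FPKM in PTZ and 2.19 and 12.3 FPKM in Q808, and lost its call without PTZ-1 (1.74), PTZ-2 (2.10) or Q808-2 (0.83), while without Q808-1 it was 3.25. Of 11 tested renin-angiotensin genes 5 were higher and 2 lower in all 3 differences, and with the 2 sets as a block 3 were called higher and 1 lower. *Mas1*, the receptor of angiotensin-(1-7), was at 19.1, 22.8 and 0.534 FPKM in PTZ and 0.226 and 6.77 FPKM in Q808, lower in both sets but not called in the fit without the block (with it, log2 difference -1.38, limma unadjusted p = 0.00346). *Agt*, the angiotensinogen of astrocytes, was at 98.2, 85.5 and 54.8 FPKM in PTZ and 91.6 and 95.3 FPKM in Q808, and the 2 called members of the list were *Ace* and the gene described as angiotensin-converting enzyme-like. The part of choroid plexus tissue in the level of *Ace* in Q808-2 was not tested.

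Several genes of the extracellular matrix were higher in Q808. Of 33 tested genes, 6 were called higher and 0 lower, 15 held the higher sign in all 3 differences and 0 the lower, and the median log2 difference was 0.55, with 0.98 and 1.03 for Q808-2 against PTZ-1 and PTZ-2 and 0.14 for Q808-1 against PTZ-3. *Col9a3*, a chain of a fibril-associated collagen, was at 8.25, 6.64 and 13.5 FPKM in PTZ and 22.5 and 19.9 FPKM in Q808, a log2 difference of 1.15 (SE 0.27, limma unadjusted p = 0.00536). *Col18a1*, the vascular basement membrane collagen that gives endostatin, was at 3.01, 3.36 and 5.17 FPKM in PTZ and 9.30 and 6.53 FPKM in Q808. *Vtn*, the adhesion protein vitronectin made by pericytes, was at 8.99, 8.08 and 16.4 FPKM in PTZ and at 18.8 and 24.2 FPKM in Q808. The groups of these genes did not overlap, though PTZ-3 stood above the other PTZ libraries in each. *Lamb2*, a laminin chain, was at 10.7, 8.85 and 14.1 FPKM in PTZ and 17.3 and 18.4 FPKM in Q808. *Col5a2* and *Col6a2*, chains of fibrillar and microfibrillar collagens, were the other two, with log2 differences of 0.59 and 0.89. *Sparc*, the most abundant member at 266, 220 and 358 FPKM in PTZ and 458 and 286 FPKM in Q808, was not called. *Col9a3* kept its call in each fit that left a library out. *Col18a1* lost it without PTZ-1 (0.84) or Q808-1 (0.72), *Vtn* without PTZ-1 (0.83), PTZ-2 (0.79) or Q808-2 (0.77), *Lamb2* without PTZ-1 (0.62), PTZ-2 (0.51) or Q808-2 (0.59), *Col5a2* without any 1 of PTZ-1, PTZ-2, Q808-1 or Q808-2 (0.51 to 0.60), and *Col6a2* without PTZ-1 (0.74), PTZ-2 (0.88) or Q808-2 (0.47).

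Markers of cells that make this matrix gave few calls. Meningeal fibroblast genes had a median of 1.01 over 14 tested genes and 1 call, *Slc6a13*, with 14 higher in Q808-2 than in PTZ-1 and PTZ-2 and 13 not higher in Q808-1 than in PTZ-3. *Igf2*, a growth factor of meninges and choroid plexus, was at 94.5 FPKM in Q808-2, 7.73 FPKM in Q808-1 and 7.72, 6.94 and 17.8 FPKM in PTZ. Without Q808-2 the median of the meningeal list was -0.05, and that of the matrix list was 0.40. Endothelial genes had a median of 0.51, with 7 of 14 higher in all 3 differences and 0 called. Mural cell genes had a median of 0.56, with 3 of 12 higher in all 3 differences and 0 called. With the 2 sets as a block 3 endothelial genes were called higher and 0 mural cell genes. Choroid plexus genes were also higher in Q808-2 than in PTZ-1 and PTZ-2, as given above. The part of meninges, vessels and choroid plexus in the matrix genes was not tested.

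Some blood cell genes were higher in Q808. Of 8 tested erythroid genes, 3 were called higher and 0 lower, 6 held the higher sign in all 3 differences, and the median was 0.98. With the 2 sets as a block 5 of the erythroid genes were called higher. *Hbb*, a hemoglobin beta chain, was at 313, 179 and 281 FPKM in PTZ and at 685 and 668 FPKM in Q808, against 213, 148 and 100.0 FPKM in Con. The groups did not overlap, and the log2 difference was 1.37 (SE 0.26, limma unadjusted p = 0.00227). *Hba-a1*, an alpha chain, was at 556, 350 and 653 FPKM in PTZ and 1349 and 679 FPKM in Q808 and was not called, the Q808-2 value lying next to PTZ-3. *Hbb-b1*, a further beta chain, was at 29.7, 18.3 and 54.9 FPKM in PTZ and 124 and 41.4 FPKM in Q808, with overlapping groups, and was not called. *Hba-a3* was at 5.45, 8.70 and 16.3 FPKM in PTZ and 31.9 and 21.8 FPKM in Q808, and *Alas2*, the heme synthesis enzyme of red cell precursors, at 1.94, 1.82 and 1.49 FPKM in PTZ and 5.22 and 3.03 FPKM in Q808. Both lost their call without Q808-1 (1.17 for *Hba-a3* and 0.70 for *Alas2*). The globin genes are close paralogs that can share reads, and the split between them is uncertain.

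Of 9 tested leukocyte genes, 3 were called higher and 0 lower, 6 held the higher sign in all 3 differences and 1 the lower, and the median was 0.74. *Mrc1*, a mannose receptor of perivascular and meningeal macrophages, was at 0.447, 0.157 and 0.503 FPKM in PTZ and 1.16 and 1.68 FPKM in Q808. *Cd163*, the hemoglobin scavenger receptor of the same cells, was at 0.0598, 0.0389 and 0.202 FPKM in PTZ and 0.672 and 0.458 FPKM in Q808. *Cd74*, the invariant chain of MHC class II in antigen-presenting cells, was at 7.97, 5.67 and 8.11 FPKM in PTZ and 9.60 and 17.0 FPKM in Q808. The groups of the 3 genes did not overlap, and *Mrc1* and *Cd163* were low. *Cd163* passed the limit of 0.1 mean FPKM over the 8 libraries only through the Q808 group, where it was high. Other leukocyte genes went the other way, such as *S100a9* of neutrophils, at 0.785, 1.09 and 2.27 FPKM in PTZ and 1.82 and 0.468 FPKM in Q808, and *Cd3e* of T cells, at 3.53, 1.95 and 0.317 FPKM in PTZ and 0.535 and 1.71 FPKM in Q808, neither of them called. *Mrc1* lost its call without Q808-2 (1.48), *Cd163* without Q808-1 (1.53), and *Cd74* without PTZ-1 (0.86), PTZ-2 (0.64), PTZ-3 (0.79) or Q808-2 (0.37), while without Q808-1 it was 1.17. Microglial genes held 0 calls among 12, or 1 higher with the 2 sets as a block, with a median of 0.37. Their abundant member *Ctss*, a lysosomal protease, was at 169, 110 and 202 FPKM in PTZ and 295 and 172 FPKM in Q808.

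Activity-induced genes were split within the PTZ group. *Arc*, which trims glutamate receptors at active synapses, was at 246 and 326 FPKM in PTZ-1 and PTZ-2 but 26.1 FPKM in PTZ-3, and at 48.6 and 26.8 FPKM in Q808, with 30.4, 34.3 and 89.6 FPKM in Con. *Egr3*, a transcription factor of the same response, was at 258 and 349 FPKM in PTZ-1 and PTZ-2, 24 FPKM in PTZ-3, and 37.9 and 29.0 FPKM in Q808. *Fosb* was at 58.4, 265 and 5.21 FPKM in PTZ and 24 and 12.6 FPKM in Q808. In these 3 genes PTZ-1 and PTZ-2 stood above every Q808 and Con. library, and PTZ-3 stood below both Q808 libraries. *Egr1* was less separated, at 81.6, 175 and 47.8 FPKM in PTZ and 61.5 and 75.3 FPKM in Q808. Of 18 tested immediate early genes 0 were called, or 1 lower with the 2 sets as a block, and the median log2 difference was -0.73. The median was -0.69 and -1.72 for Q808-2 against PTZ-1 and PTZ-2, but 0.87 for Q808-1 against PTZ-3, with 16 of the 18 genes higher in Q808-1. Without PTZ-3 the median was -1.54.

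The later genes of the response had the lowest median of the 34 functions, -1.33 over 14 tested genes, and 1 of them was called. *Inhba*, the activin subunit induced by seizures, was at 15.8, 44.2 and 1.81 FPKM in PTZ and 1.09 and 0.973 FPKM in Q808, with 1.02, 0.990 and 4.12 FPKM in Con. The groups did not overlap, and the log2 difference was -3.35 (SE 1.32, limma unadjusted p = 0.0462). Its SE was wide, and the call was lost without any 1 of PTZ-1, PTZ-2, Q808-1 or Q808-2 (-3.43 to -2.31). *Nptx2*, a pentraxin that gathers glutamate receptors, was at 231, 348 and 21.1 FPKM in PTZ and 22.9 and 22 FPKM in Q808, and the Con. libraries were at 20.4 to 21.1 FPKM. *Bdnf*, the brain-derived neurotrophic factor, which was chosen after its values were seen, was at 41.7, 95.8 and 2.52 FPKM in PTZ and 1.5 and 7.28 FPKM in Q808. *Nrn1*, a membrane-anchored growth factor, was at 232, 346 and 48.3 FPKM in PTZ and 24.4 and 100.0 FPKM in Q808, and *Vgf*, a secreted peptide precursor, at 121, 188 and 56.6 FPKM in PTZ and 52.0 and 50.2 FPKM in Q808. *Scg2*, another granin-like precursor, was at 137, 319 and 63.4 FPKM in PTZ and 35.2 and 108 FPKM in Q808. The median of the list was -1.19 and -1.92 for Q808-2 against PTZ-1 and PTZ-2 and -0.01 for Q808-1 against PTZ-3. Of the 14 genes, 7 were lower in all 3 differences and 0 higher, and *Nrn1* (-0.90), *Scg2* (-0.76), *Bdnf* (-0.63) and *Inhba* (-0.61) were lower in Q808-1 than in PTZ-3 by more than 1.5-fold. With the 2 sets as a block 4 genes of the list were called lower.

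**Figure D4:**
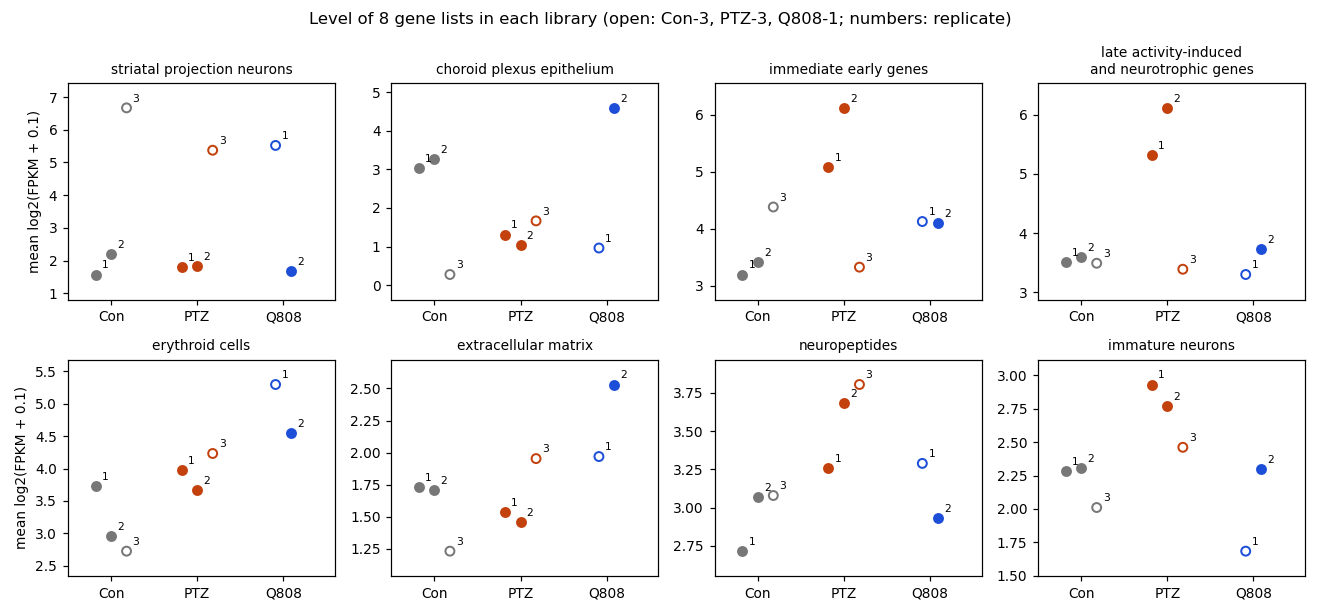
Mean log2(FPKM + 0.1) over the tested genes of 8 lists in each library (y axis), by group (x axis), after scaling over the 8 libraries; each point is 1 library, the number beside it is the replicate, and open points are Con.-3, PTZ-3 and Q808-1. The activity-induced lists are high in PTZ-1 and PTZ-2 and not in PTZ-3, the choroid plexus list is highest in Q808-2, and the erythroid list is higher in both Q808 libraries than in any PTZ library.

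Many genes of this response carry a cAMP response element in the promoter, the binding sequence of CREB, a factor that neuronal activity switches on. The full element, TGACGTCA, which reads the same on both strands, was searched in the 250 bases before the start of each gene in the RefSeq promoter table of GRCr8. Of the 12239 tested genes with a promoter in the table, 335 (2.74%) held it. It was found in 2 of 10 late activity genes and 3 of 13 immediate early genes, in 0 of 12 neuropeptide genes, in 2 of 65 genes called lower (3.08%) and in 2 of 146 called higher (1.37%). The other neuropeptide genes, of 15 tested, had no promoter in the table. The search rests on the gene starts of the table and on the full element, so a gene without a match may still carry it. The 60 bases around each of the 5 matches are shown, since these are the members of both lists that share the element, with the element in capitals.
*Vgf*, chr12:25277077-25277136, minus strand: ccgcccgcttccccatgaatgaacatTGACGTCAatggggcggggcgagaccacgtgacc
*Scg2*, chr9:88256956-88257015, minus strand: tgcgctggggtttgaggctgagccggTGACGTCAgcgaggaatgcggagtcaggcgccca
*Ier2*, chr19:40399281-40399340, plus strand: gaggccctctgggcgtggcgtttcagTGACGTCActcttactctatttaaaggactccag
*Dusp1*, chr10:17184703-17184762, plus strand: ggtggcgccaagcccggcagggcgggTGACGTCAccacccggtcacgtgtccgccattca
*Btg2*, chr13:48087858-48087917, minus strand: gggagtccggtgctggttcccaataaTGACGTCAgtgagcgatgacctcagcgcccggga

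The element began 90 bases before the start of *Vgf*, 123 of *Scg2*, 66 of *Ier2*, 124 of *Dusp1* and 201 of *Btg2*. The 5 genes did not share a pattern. *Vgf* and *Scg2* were high in PTZ-2 as given above, while *Ier2* was nearly level, at 10.9, 9.21 and 8.25 FPKM in PTZ and 8.13 and 10.3 FPKM in Q808. *Dusp1*, a phosphatase that ends MAP kinase signals, was at 40.5, 48.6 and 24.6 FPKM in PTZ and 58.7 and 40.5 FPKM in Q808. *Btg2*, an antiproliferative gene, was at 12.7, 11.2 and 8.82 FPKM in PTZ and 6.63 and 12.7 FPKM in Q808.

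Neuropeptide genes had negative medians in both sets, -0.32 and -0.56 for Q808-2 against PTZ-1 and PTZ-2 and -0.61 for Q808-1 against PTZ-3. Of 15 tested genes 2 were called lower and 0 higher, 9 held the lower sign in all 3 differences and 1 the higher, and the median was -0.53. *Npy*, a member of this list and of the interneuron list, was not among the tested genes. With the 2 sets as a block 5 neuropeptide genes were called lower. *Pdyn*, the precursor of the opioid dynorphins of dentate granule and striatal cells, was at 32.6, 60.5 and 51.8 FPKM in PTZ and 21.3 and 22.9 FPKM in Q808, with 35, 37.3 and 71.4 FPKM in Con. The groups did not overlap, and the log2 difference of -1.14 (SE 0.29, limma unadjusted p = 0.00798) was called in each fit that left a library out. *Cck*, cholecystokinin, made by a class of basket cells and by pyramidal cells, was at 138, 146 and 198 FPKM in PTZ and 82.0 and 122 FPKM in Q808, and lost its call without Q808-1 (-0.45). *Sst*, somatostatin, was at 129, 182 and 263 FPKM in PTZ and 124 and 135 FPKM in Q808, with the Q808 libraries below the PTZ libraries after scaling (Q808-2 by 0.05 on the log2 scale from PTZ-1), and was not called. *Penk* and *Tac1*, opioid and tachykinin precursors that are abundant in striatum, were high in PTZ-3 and Q808-1, as the striatal genes were. *Penk* was at 407 and 283 FPKM in these libraries and 21.6 to 52.9 FPKM in the other 3. Interneuron genes had a median of -0.47, with 8 of 12 lower in all 3 differences and *Cck* called. *Gad1*, which makes GABA, was at 83.6, 117 and 139 FPKM in PTZ and 98.6 and 83.8 FPKM in Q808. *Pvalb*, the calcium buffer of fast-spiking cells, went against the list in Q808-1, at 118 FPKM, with 45.9 FPKM in Q808-2 and 53.9, 63.1 and 31.7 FPKM in PTZ.

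Among 11 tested genes of immature neurons 2 were called lower, and the median was -0.36. *Sox11*, a transcription factor of newborn neurons, was at 20.9, 14.2 and 2.24 FPKM in PTZ and 1.56 and 1.31 FPKM in Q808, with 0.869 to 3.50 FPKM in Con. It shared the split of the activity genes, with PTZ-1 and PTZ-2 high. Its log2 difference was -2.60 (SE 0.99, limma unadjusted p = 0.0408), and the call was lost without any 1 of PTZ-1, PTZ-2, Q808-1 or Q808-2 (-2.73 to -1.97). *Mex3a*, an RNA-binding protein of progenitors, was at 2.74, 2.32 and 1.53 FPKM in PTZ and 0.696 and 0.693 FPKM in Q808, with 0.860 to 0.951 FPKM in Con., and its log2 difference of -1.55 (SE 0.38, limma unadjusted p = 0.00732) held the call in each fit. *Stmn1* and *Tubb3*, cytoskeletal genes of young neurons that stay on in the adult, were not called.

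The astrocyte and oligodendrocyte lists held no called gene. Oligodendrocyte genes were higher in Q808-1 than in PTZ-3 in 12 of 12 cases and lower in Q808-2 than in PTZ-1 in 12 of 12. *Mbp*, a myelin protein, was at 7875 FPKM in Q808-1 against 3536 FPKM in PTZ-3, whereas Q808-2 had 1691 FPKM against 2235 and 1536 FPKM in PTZ-1 and PTZ-2. Of the 12 astrocyte genes 10 were higher in Q808-1 than in PTZ-3, and *Gfap*, their intermediate filament, was at 380, 356 and 315 FPKM in PTZ and 450 and 309 FPKM in Q808. The medians of both lists had opposite signs in the 2 sets.

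Genes of principal neurons and of synapses gave few calls. *Wfs1*, a gene of CA1 pyramidal cells, was at 132, 132 and 86.2 FPKM in PTZ and 16.0 and 93.0 FPKM in Q808, and 5 of 9 tested CA genes were lower in all 3 differences with 0 called, or 1 with the 2 sets as a block. Of 22 presynaptic genes 12 were lower in all 3 differences and 0 higher, with a median of -0.35. *Snap25*, a protein of vesicle fusion, was at 1011, 1103 and 833 FPKM in PTZ and 586 and 896 FPKM in Q808. *Doc2a*, a calcium sensor of spontaneous release, was the presynaptic gene that was called, at 8.15, 11.4 and 14.8 FPKM in PTZ and 4.77 and 7.82 FPKM in Q808, and it lost the call without PTZ-2 (-0.86), PTZ-3 (-0.78) or Q808-1 (-0.58).

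The target of PTZ itself was part of this group. Of 17 tested GABA-A receptor subunits 1 was called, and 5 were lower and 1 higher in all 3 differences. *Gabra4*, the subunit of extrasynaptic receptors in dentate and striatum, was at 36.1, 36.6 and 29.9 FPKM in PTZ and 18.9 and 22.4 FPKM in Q808, with 26.6, 26.4 and 44.6 FPKM in Con. Its groups did not overlap, the log2 difference was -0.79 (SE 0.21, limma unadjusted p = 0.00965), and the call was lost without Q808-1 (-0.68). *Gabra5*, a subunit of extrasynaptic receptors in the hippocampus, was not called. It was lower in PTZ-3 and Q808-1, at 22.4 and 10.7 FPKM, than in the other 3, at 58.4 to 69.4 FPKM. Of 14 tested genes of GABA synthesis, transport and breakdown, 2 were called higher and 0 lower. In all 3 differences 3 of them were higher and 6 lower. The median was -0.10, and 0.06 with quantile normalization. The 2 called genes were *Slc6a13* and *Slc6a12*, GABA and betaine transporters of meninges and vessels. *Slc6a13* was at 1.02, 0.443 and 1.51 FPKM in PTZ and 1.99 and 5.44 FPKM in Q808, and lost the call without PTZ-1 (1.82), PTZ-2 (1.32) or Q808-2 (1.02). *Slc6a12* was listed at 0, 0.101 and 0.0658 FPKM in PTZ and at 0.194 and 0.406 FPKM in Q808, and lost it without PTZ-1 (1.04), PTZ-3 (1.37) or Q808-2 (0.95). *Slc6a12* passed the limit of 0.1 mean FPKM over the 8 libraries only through the Q808 group.

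Glutamate receptors gave 0 calls among 17 ionotropic and 8 metabotropic genes. *Slc25a22*, the mitochondrial glutamate carrier, was called lower, at 1.14, 3.46 and 3.06 FPKM in PTZ and 0.342 and 0.727 FPKM in Q808, with PTZ-1 near the Con. libraries at 0.462 to 1.11 FPKM. *Cacng3*, an auxiliary subunit of AMPA receptors of the calcium channel gamma family, was at 60.3, 74.3 and 67.8 FPKM in PTZ and 34.7 and 45.2 FPKM in Q808, a log2 difference of -0.82 (SE 0.20, limma unadjusted p = 0.00615) that kept its call in each fit. *Kcna4*, an A-type potassium channel, was at 7.79, 8.94 and 6.4 FPKM in PTZ and 4.56 and 5.15 FPKM in Q808, and lost its call without any 1 of PTZ-1, PTZ-2, Q808-1 or Q808-2 (-0.79 to -0.56). Sodium channels gave 0 calls among 9 genes.

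Proteasome, glycolysis and chaperone genes had negative medians, and 2 of them were called. Of 38 tested proteasome subunits 29 were lower in all 3 differences and 0 higher, with a median of -0.18 and 1 called, and with quantile normalization the median was -0.08. *Psmd5*, an assembly chaperone of the proteasome, was at 15.1, 16.4 and 13.6 FPKM in PTZ and 8.76 and 11.7 FPKM in Q808, and lost its call without PTZ-1 (-0.60), PTZ-2 (-0.51) or Q808-1 (-0.42). Of 22 glycolysis genes 13 were lower in all 3 differences and 0 higher, with a median of -0.32. *Ldha*, lactate dehydrogenase, was called, at 194, 233 and 190 FPKM in PTZ and 94.1 and 171 FPKM in Q808, and its log2 difference of -0.76 lost the call without PTZ-1 (-0.78), PTZ-2 (-0.62), PTZ-3 (-0.87) or Q808-1 (-0.34), while without Q808-2 it was -1.18. *Gapdh* was at 928, 1054 and 924 FPKM in PTZ and 656 and 904 FPKM in Q808, so that Q808-1 was the low library in both genes. Heat shock chaperones had a median of -0.44, with 10 of 15 lower in all 3 differences. Of them 0 were called, or 2 lower with the 2 sets as a block. *Hspa8*, the constitutive HSP70, was at 594, 754 and 410 FPKM in PTZ and 348 and 493 FPKM in Q808.

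Of 22 genes of cholesterol synthesis 12 were lower in all 3 differences, 0 were higher, and 2 were called lower. The median was -0.23, and -0.12 with quantile normalization. It was -0.21 and -0.43 for Q808-2 against PTZ-1 and PTZ-2. For Q808-1 against PTZ-3 it was -0.04, with 10 of the 22 genes higher in Q808-1. *Mvd*, mevalonate diphosphate decarboxylase, was at 20.8, 27.5 and 18.1 FPKM in PTZ and 10.9 and 14.3 FPKM in Q808, with 11.1 to 15.3 FPKM in Con., and lost its call without PTZ-1 (-0.88) or Q808-1 (-0.68). *Idi1*, the isomerase of the next step, was at 16.0, 24.5 and 20.0 FPKM in PTZ and 13.1 and 14.3 FPKM in Q808, and lost its call without any 1 of PTZ-2, PTZ-3, Q808-1 or Q808-2 (-0.66 to -0.41). *Hmgcs1*, an early enzyme of the pathway, was at 121, 132 and 146 FPKM in PTZ and 116 and 95.9 FPKM in Q808, not overlapping but within 1.5-fold. *Tmem97*, given above with the lower genes, is a known target of SREBP2, the factor that switches this pathway on. In ribosome biogenesis *Fbl*, the methyltransferase fibrillarin of the nucleolus, was called lower, at 59.6, 70.0 and 33.3 FPKM in PTZ and 22 and 25.7 FPKM in Q808. Its log2 difference of -1.18 lost the call without any 1 of PTZ-1, PTZ-2, Q808-1 or Q808-2 (-1.28 to -0.92), and 13 of 21 genes of the list were lower in all 3 differences. The sign of the oxidative phosphorylation list turned with the scaling, at -0.08 in the main scaling and 0.05 with quantile normalization, over 84 genes with 1 called in each direction, *Cox8b* higher and *Ndufa10l1* lower. *Cox8b*, a respiratory chain subunit, was at 1.02, 1.78 and 1.29 FPKM in PTZ and 3.30 and 23.4 FPKM in Q808, and its log2 difference of 2.58 lost the call without PTZ-3 (2.50) or Q808-2 (1.20), and was 3.96 without Q808-1. *Ndufa10l1* was at 6.34, 14.7 and 17.1 FPKM in PTZ and 3.90 and 7.13 FPKM in Q808, with overlapping groups, and lost its call without PTZ-2 or PTZ-3 (-0.99 each) or Q808-1 (-0.78).

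Inflammatory genes were split like the activity genes, with medians of -0.63 and -1.01 against PTZ-1 and PTZ-2 and 0.24 against PTZ-3. In all 3 differences 4 of the 20 tested genes were lower, *Timp1* and *Ccl7* among them, and 2 were higher. *Timp1*, a metalloproteinase inhibitor induced in reactive astrocytes, was at 15.6, 57.9 and 5.70 FPKM in PTZ and 3.35 and 5.52 FPKM in Q808 and was not called. *Ccl7*, a monocyte chemokine, was the member that was called, at 0.483, 0.549 and 0.917 FPKM in PTZ and 0 and 0.168 FPKM in Q808, a low gene. It passed the limit of 0.1 mean FPKM over the 8 libraries only through the PTZ group. In the insulin-like growth factor list *Insr*, the insulin receptor, was called higher, at 3.52, 3.06 and 3.70 FPKM in PTZ and 6.03 and 4.93 FPKM in Q808, and *Igfbp4*, a binding protein, lower, at 22.9, 24.8 and 22.2 FPKM in PTZ and 10.9 and 19.6 FPKM in Q808. *Insr* lost its call without any 1 of PTZ-1, PTZ-2, PTZ-3 or Q808-1 (0.44 to 0.63), and *Igfbp4* without PTZ-1 (-0.73), PTZ-2 (-0.65) or Q808-1 (-0.32), while without Q808-2 it was -1.15. *Igfbp2*, made by choroid plexus and meninges, followed Q808-2, at 153 FPKM there and 14.8 to 22 FPKM in the other 4.

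In the LIM list *Ldb2* and *Fhl2* were called lower beside *Lmo4*. *Fhl2*, a LIM-domain scaffold, was at 9.58, 12.2 and 7.21 FPKM in PTZ and 4.84 and 5.94 FPKM in Q808, close to the Con. libraries at 4.78 to 5.34 FPKM. *Ldb2*, the partner that binds LIM domains, was at 12.3, 16.0 and 21.6 FPKM in PTZ and 6.52 and 13.2 FPKM in Q808, and after scaling Q808-2 lay below PTZ-1 by 0.02 on the log2 scale. Their calls were lost without any 1 of PTZ-1, PTZ-2, Q808-1 or Q808-2 for *Fhl2* (-1.0 to -0.64) and without PTZ-2 (-0.83), PTZ-3 (-0.72) or Q808-1 (-0.37) for *Ldb2*, which was -1.35 without Q808-2. Among 29 genes of drug metabolism and efflux 1 was called, and 11 were higher and 3 lower in all 3 differences. *Abcc1*, the efflux transporter MRP1 of the blood-brain and blood-cerebrospinal fluid barriers, was at 3.63, 3.20 and 4.83 FPKM in PTZ and 6.82 and 6.21 FPKM in Q808, and lost its call without PTZ-1 (0.66), PTZ-2 (0.60) or Q808-1 (0.61).

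Some called genes are named as relatives of another gene, with which they may share reads. *Ppial4d*, named for the cyclophilin gene *Ppia*, had the smallest p of all genes, at 113, 143 and 161 FPKM in PTZ and 24.3 and 29.6 FPKM in Q808, a log2 difference of -2.42 (SE 0.19, limma unadjusted p = 1.87e-05, adjusted p = 0.291). Its Con. libraries were at 133 to 184 FPKM. *Ppia* itself was at 845, 839 and 896 FPKM in PTZ and 682 and 832 FPKM in Q808 and was not called, so that the abundant gene did not share the size of that difference. The gene listed as GeneID102556346, described as angiotensin-converting enzyme-like, stood beside *Ace*, at 3.29, 2.58 and 7.11 FPKM in PTZ and 10.1 and 19.0 FPKM in Q808, and lost its call without Q808-2 (1.29). GeneID103692570, described as dihydropyrimidinase-related protein 5-like, was at 0.395, 0.655 and 0.501 FPKM in PTZ, listed at 0 in Q808-1 and at 0.0412 FPKM in Q808-2, while *Dpysl5* was at 1.06, 0.978 and 0.973 FPKM in PTZ and 0.958 and 0.813 FPKM in Q808. *H2-Q7-ps1*, an MHC class I pseudogene, was listed at 0, 0.201 and 0 FPKM in PTZ and at 1.08 and 1.03 FPKM in Q808, and *Rpl10l3*, named as a ribosomal protein relative, at 0, 0.109 and 0.142 FPKM in PTZ and 1.12 and 0.820 FPKM in Q808. These values are uncertain where reads match more than 1 gene.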

How the data were processed

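Hippocampal poly(A) RNA of 8 rats was sequenced with 1 library per rat. The authors trimmed reads with Trimmomatic and deposited FPKM per gene from Cufflinks, for 22601 genes in each library. The genome build and the role of the aligners that the submitters' processing notes name were not given in the sources used here. Symbols of 20633 genes came from RefSeq (GRCr8) by GeneID and of 5 by accession, and 1963 kept their identifier. Genomic positions were not used, except those of the promoter windows.

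Groups came from the labels. Genes were kept from 0.1 mean FPKM upwards (15593), scaled by the median ratio over 11531 genes above 1 FPKM and fitted as log2(FPKM + 0.1) by limma 3.58.1 with a trend in R 4.3.3, with Benjamini-Hochberg adjustment over all genes. A fold is on the log2(FPKM + 0.1) scale, which understates the change of low genes. Named genes were the 12 higher and 12 lower called genes with the smallest p, with a symbol, a mean of at least 1 FPKM in the higher of the 2 groups, groups apart and beyond 1.5-fold in all 3 differences, then called list members, up to 4 abundant members per list and the pairs of like-named genes. Members and lists were chosen with earlier results of these data known. The limma step was tested on simulated data. Figures were drawn in Python 3.11.15 with matplotlib 3.10.9, numpy 2.4.6 and pandas 2.3.3. Alternatives were other scalings, pseudocounts, filters, blocks, limits and left-out libraries.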

Additional observations from a re-analysis of the deposited data

Results flagged for a closer look

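Of the 51 lists, 19 had a median that moved one way in Q808-2 against both PTZ-1 and PTZ-2 and the other way in Q808-1 against PTZ-3. The difference between the sets was not tested, since the second set has 1 library a group. The gap, the mean of the first 2 medians minus the third on the log2 scale, was 4.58 for choroid plexus, 3.54 for meningeal fibroblasts, 0.97 for ependymal cells, 0.501 for serotonin and adenosine receptors, 0.406 for insulin-like growth factors and 0.226 for mitochondrial ribosomal proteins. It was negative for immediate early genes (-2.07), glucocorticoid-induced genes (-1.33), oligodendrocytes (-1.09), the inflammatory response (-1.06), astrocytes (-0.834), GABA synthesis (-0.3), glutamate transport (-0.277), oxidative stress (-0.257), calcium channels (-0.247), striatal neurons (-0.244), potassium channels (-0.201), cytosolic ribosomal proteins (-0.132) and endoplasmic reticulum processing (-0.105).

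Among named genes, 23 did the same. The gap was 5.63 for *Ttr*, 4.81 for *Clic6*, 4.63 for *Igf2*, 3.39 for *Igfbp2*, 3.15 for *Fmod*, 1.88 for *Mgp* and 1.03 for *Dcn*, the last 3 being meningeal genes. It was -5.7 for *Fosb*, -4.52 for *Arc*, -4.25 for *Egr3*, -4.03 for *Nptx2*, -2.46 for *Pvalb*, -2.03 for the glucocorticoid-induced kinase gene *Sgk1*, -1.62 for *Dusp1*, -1.52 for *Mbp*, -1.4 for *Cd3e*, -1.26 for *Egr1*, -0.997 for *Gfap*, -0.914 for *Agt*, -0.483 for *Dpysl5*, -0.329 for *Stmn1*, -0.173 for *Ier2* and -0.11 for *Ppp1r1b*.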

How the results depend on the processing

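The number of called genes, 308, was 191 with a pseudocount of 1, 196 with a mean FPKM of at least 1, 170 with a 2-fold limit and 573 with the 2 sets as a block, and between 145 and 1454 with each library left out. Chosen after the data were seen, the block with quantile normalization gave 516 and PTZ-1 and PTZ-2 against Q808-2 alone 1283, where the lone library is assumed to vary like the others. With the replicate block, in which the replicate number is a block, 1521 genes were called. Deviations from the group mean correlated at -0.44 for PTZ-1 with Q808-1 and 0.41 for PTZ-2 with Q808-2. The deviations of the 2 Q808 libraries mirror each other, so these values cannot decide whether the numbers pair rats. No alternative but the fit of all 3 groups, with 1 gene, gave an adjusted p under 0.05. The 24 named genes kept their direction under every alternative that tested them. With a library left out, *Ttr* ranged from -1.303 (without Q808-2) to 4.009 (without Q808-1) and *Enpp6* from -0.8736 (without Q808-1) to 1.247 (without Q808-2), and *Htr2c* turned to 1.195 with PTZ-1 and PTZ-2 against Q808-2 alone. Depth limits genes near 0 FPKM.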

Other observations

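Several groups that the report does not describe held no called gene. Of 16 circadian clock genes 0 were called, 5 were lower and 2 higher in all 3 differences, and the median log2 difference was -0.09. Of 25 sphingolipid genes 0 were called, with 6 higher and 2 lower in all 3 differences and a median of 0.15. With the 2 sets as a block 1 clock gene was called lower and 1 sphingolipid gene higher, against 1.49% of all genes lower and 2.19% higher. Of 72 mitochondrial ribosomal proteins 0 were called, with 16 lower and 9 higher, and of 8 oligodendrocyte precursor genes 0 were called, with all 8 higher in Q808-1 than in PTZ-3 but 2 of 8 higher in Q808-2 than in PTZ-1.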
